A study of Mus musculus with 14 samples.

Results

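RNA of 9 complement genes was followed in mice with early photoreceptor loss, in the layer of pigmented cells that supports the photoreceptors, the retinal pigment epithelium (RPE). The genes were chosen by name: C1qa, C1qb and C1qc (the chains of C1q), C4b (complement C4), C3, Cfb and Cfd (factors B and D), Cfi (factor I) and Serping1 (C1 inhibitor). All 9 were present among the 34452 mouse genes of the deposited table, and 8 had enough counts to be tested. The libraries came from 7 rd1 mice at postnatal day 20, a strain on the FVB/N background with a loss-of-function Pde6b allele whose rods die early. Every eye had received an adeno-associated virus (AAV) with the human Best1 promoter, which is active in the RPE, in front of green fluorescent protein (AAV-Best1-GFP). In each mouse 1 eye had also received human Nrf2, the transcription factor that turns on antioxidant genes, from the same promoter (AAV-Best1-Nrf2), in a vector with another capsid. These 7 eyes are called Nrf2 and the 7 fellow eyes control, so that Nrf2 4 is the library of the Nrf2 eye of mouse 4. The Nrf2 eyes thus had both a transgene and a further vector that the control eyes lacked, and the effects of these cannot be told apart.

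Complement is a protease cascade of blood and tissue fluid. It starts on 3 routes. In the classical route C1q binds a target, the protease C1r activates the protease C1s, and C1s cuts C4 and C2. In the lectin route the MASP proteases cut them, and in the alternative route factor D cuts factor B bound to C3b. All lead to cleavage of C3 and then to the terminal pore of C5 to C9, and C1 inhibitor and factor I are among the proteins that restrain them. C1q is made mainly by macrophages and microglia.

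Total counts ranged from 16548349 to 50543008 per library, and levels below are counts scaled to a library total of 1e+06 (CPM). Transcript of the Nrf2 vector stood between 1163 and 8711 CPM in Nrf2 eyes and between 1.12 and 1163 CPM in control eyes. The libraries Nrf2 4 and control 3, from different mice, were almost alike in it (1163 CPM each). They were also alike in the complement genes, with ratios of Nrf2 4 over control 3 between 0.94 and 1.04 for the C1q genes, C4b, Cfi and Serping1, 1.12 for Cfb and 1.23 for C3. The likeness reached beyond these genes. In Nrf2 4 and control 3, fibroblast markers summed to 695 and 701 CPM, and glia markers to 5834 and 5847 CPM. Rod and cone markers summed to 47.8 and 45.3 CPM, and RPE markers to 13880 and 14182 CPM. Whether either library carries the right label cannot be told from these values, and the cause of the likeness was not tested. Results are therefore given with all 7 mice and, where it matters, without mice 3 and 4. Of the RPE markers, 8 genes such as Rpe65 and Rlbp1, all were detected in every library, and their summed level lay between 7983 and 17399 CPM in control eyes and between 13880 and 20724 CPM in Nrf2 eyes. Much of this sum was Ttr, and the other 7 genes summed to 5597 to 12123 CPM (median 10061) in control eyes and 5548 to 10181 CPM (median 7342) in Nrf2 eyes, with Rpe65 itself lower in the Nrf2 eye of 7 of 7 mice.

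Among the 9 genes only Cfi changed past the threshold, and it rose 5.3-fold. The 3 C1q genes and C4b had higher means in Nrf2 eyes, but their differences did not pass the test. C3, Cfb and Serping1 had means close to those of the control eyes, and Cfd was close to 0 in every library. Differences were tested in edgeR (quasi-likelihood F-test) with the mouse as a term, so that the eyes of 1 animal were compared with each other, and the adjusted p is the Benjamini-Hochberg value over all genes tested. Of the 8 genes tested 1 passed an adjusted p under 0.05, where 3.43% of all 16289 genes did (2.94% higher and 0.491% lower). The median log2 fold change of the 8 was 1.14, and that of all genes was -0.04. The 3 C1q genes, which moved together and did not pass the test, weigh in the former. After TMM normalization, 2 of the 8 (Cfi and C4b) were higher in the Nrf2 eye of every mouse, a pattern seen in 5.65% of all genes.

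**Figure D1:**
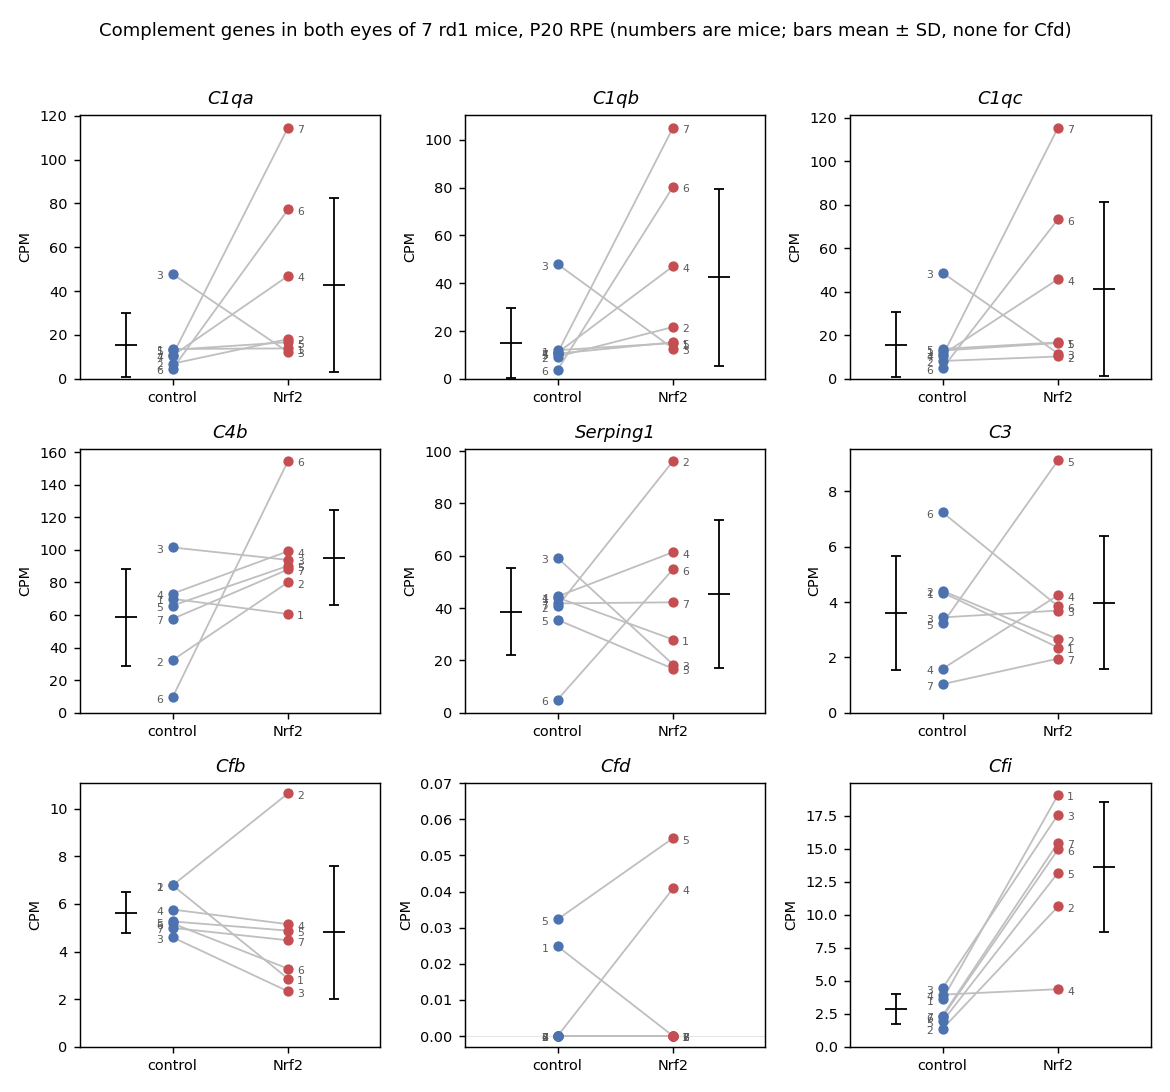
Level of each of the 9 complement genes in CPM (vertical axis, linear, starting at 0 except for Cfd) in the control and the Nrf2 eye of each mouse. Points are libraries numbered by mouse, grey lines join the eyes of a mouse, and bars give the mean ± SD of 7 libraries, with none for Cfd. Cfi lies between 1.37 and 4.45 CPM in control eyes and at or above 10.6 CPM in every Nrf2 eye but that of mouse 4 (4.37 CPM), while in the C1q panels control 3 stands above the other control eyes.

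Levels of different genes were compared per kilobase of exon. In control eyes Serping1 was the highest of the 9, with a median of 17.99 CPM per kilobase. C4b (11.6), C1qa (10.3) and C1qb (9.98) followed, in CPM per kilobase. C1qc (5.80), Cfb (1.86), Cfi (1.06), C3 (0.670) and Cfd (0) came last on the same scale. Serping1 stood above C4b in 7 of 7 control libraries, whereas C4b stood above C1qa in 1 of 7, so that within libraries this pair mostly had the order opposite to its medians. In Nrf2 eyes the medians on that scale were 19.9 for C1qb, 18.2 for Serping1, 17.4 for C1qa, 15.8 for C4b and 8.68 for C1qc. Cfi had a median of 6.74 CPM per kilobase in these eyes, above Cfb (1.58) in 7 of 7 libraries and above C3 (0.718). Serping1 was above C1qa in 1 of 7 Nrf2 libraries (Nrf2 2), again the opposite of the medians, and C4b was above C1qc in 4 of 7, with no steady order.

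The cascade's first component, C1q, is built from the chains A, B and C in equal numbers. Their genes lie side by side on the minus strand of chr4:136880129-136898803 (GRCm38), within 18.7 kb, as C1qb (ENSMUSG00000036905), C1qc (ENSMUSG00000036896) and C1qa (ENSMUSG00000036887). Promoter windows from 250 bases before to 50 bases after the transcription start were taken from RefSeq (GRCm38.p6), which held 4 of the 9 genes in the table used (C3, C1qb, C1qc and Cfd). The windows of C1qb (chr4:136886151-136886450, minus strand) and C1qc (chr4:136892865-136893164, minus strand) are shown because these neighbours moved together, each written 5′ to 3′ in the direction of transcription with the motif match in capitals.
C1qb: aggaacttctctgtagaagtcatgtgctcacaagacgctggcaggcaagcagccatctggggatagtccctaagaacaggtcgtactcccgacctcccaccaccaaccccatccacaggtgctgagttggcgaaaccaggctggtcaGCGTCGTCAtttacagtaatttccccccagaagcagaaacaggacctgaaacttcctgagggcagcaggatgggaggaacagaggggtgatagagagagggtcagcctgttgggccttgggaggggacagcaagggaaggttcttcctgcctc
C1qc: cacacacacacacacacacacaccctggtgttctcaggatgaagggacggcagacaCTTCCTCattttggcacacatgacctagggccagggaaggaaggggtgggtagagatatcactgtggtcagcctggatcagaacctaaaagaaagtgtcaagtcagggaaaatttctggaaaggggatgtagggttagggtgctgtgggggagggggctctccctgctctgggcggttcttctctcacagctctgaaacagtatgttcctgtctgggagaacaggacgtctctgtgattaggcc
The capitals in C1qb match the core of the antioxidant response element to which Nrf2 binds, TGACNNNGC, read on the opposite strand and starting 103 bases before the transcription start. The capitals in C1qc match GAGGAAG, the core bound by PU.1, a factor of macrophages, also on the opposite strand. With both strands searched, 12.4% of 32851 promoter windows held the former and 13.6% the latter, so such matches are common. The other motifs searched, the GAS element TTCNNNGAA (8.3% of all windows) and the C/EBP core TTGCGNAA (0.798%), had no match in these windows. Matches are letters in a window and do not show binding.

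C1qa had 13.6, 6.91, 47.8, 10.6, 13.2, 4.55 and 10.7 CPM in the control eyes of mice 1 to 7. The Nrf2 eyes of the same mice had 13.9, 18.1, 12.2, 46.9, 16.7, 77.2 and 115 CPM. Mice 4, 6 and 7 carried the high Nrf2 values, and mouse 3 went the other way because its control eye was the highest of that group. The log2 fold change was 1.51 ± 0.70 (SE, n = 7 mice; adjusted p = 0.304, edgeR), with 6 of 7 mice higher, and the exact sign-flip permutation test over mice gave p = 0.109 (two-sided). C1qb ranged from 3.79 to 48.0 CPM with a median of 10.9 in control eyes and from 12.7 to 105 CPM with a median of 21.7 in Nrf2 eyes, a log2 fold change of 1.57 ± 0.70 (adjusted p = 0.280, edgeR). C1qc ranged from 4.92 to 48.8 CPM with a median of 11.2 in control eyes and from 10.3 to 116 CPM with a median of 16.8 in Nrf2 eyes, a log2 fold change of 1.32 ± 0.71 (adjusted p = 0.368, edgeR). In all 3 genes the ranges of the groups overlapped, and 6 of 7 mice were higher.

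Without mice 3 and 4 the log2 fold changes were 1.91 ± 0.66 for C1qa, 1.99 ± 0.64 for C1qb and 1.702 ± 0.681 for C1qc. None of these passed the threshold in edgeR (adjusted p = 0.150, 0.132 and 0.208). The groups then no longer overlapped for C1qa and C1qb, which holds for 4.46% of all genes in that direction. For C1qa they were close, with 13.9 CPM in Nrf2 1 and 13.6 CPM in control 1. Mice 3 and 4 had been set aside partly for the likeness of Nrf2 4 and control 3 in these same genes. Mouse 3 was also the only mouse with less C1q in its Nrf2 eye, so the gap partly follows from the choice. DESeq2 with all 7 mice called C1qb (adjusted p = 0.0412), so its call depended on the tool.

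The 3 chains kept nearly the same proportion to each other in single libraries. Within a library the highest of them in CPM, not divided by exon length, was 1.02 to 1.35 times the lowest, except in Nrf2 2. In that library, the shallowest, C1qc was low and the ratio was 2.11. Per kilobase of exon the 3 were not equal, with control medians of 10.3 (C1qa), 9.98 (C1qb) and 5.80 (C1qc). Over the 14 libraries the correlation of their log2 CPM lay between 0.97 and 0.99 (Pearson) and between 0.86 and 0.97 (Spearman), as a description, since all genes of a library share its depth and its cells. The summed level of the trio was lowest in control 6 (13.3 CPM) and highest in Nrf2 7 (335 CPM).

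Several genes of macrophages and microglia moved with C1q. The tested genes whose log2 CPM was most like the mean of the trio over 14 libraries were Laptm5 (r = 0.98, rho = 0.91), Tyrobp (r = 0.98, rho = 0.94) and Fcer1g (r = 0.98, rho = 0.93), which are known from white blood cells and stood on the macrophage list. All 15 genes of that list were detected in every library and 0 of 15 passed the threshold in edgeR (4 of 15 had an unadjusted p under 0.05, where 18.1% of all genes did). By other tools, voom called 0 of the 15, and DESeq2 called Trem2 and Lyz2 higher and Csf1r lower. Of the 15, 14 had a log2 fold change above 0 and Csf1r had -0.76, with a median of 0.82. Tmem119 (0.08 ± 0.49) and P2ry12 (0.33 ± 0.76) lay nearest 0. Csf1r, which in control eyes had 63.3 to 260 CPM, made up much of the list's sum, so the other 14 were also summed. Their sum was 50.2 to 282 CPM (median 86.9) in control eyes and 77.0 to 557 CPM (median 133) in Nrf2 eyes, highest in Nrf2 7, Nrf2 6, Nrf2 4 and control 3, the same 4 libraries in which the C1q sum was highest. With Csf1r included the sum was 163 to 446 CPM (median 294) in control eyes and 150 to 692 CPM (median 189) in Nrf2 eyes. The part of these cells in the C1q differences was not tested, and more such cells and more C1q RNA per cell cannot be told apart in bulk RNA.

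**Figure D2:**
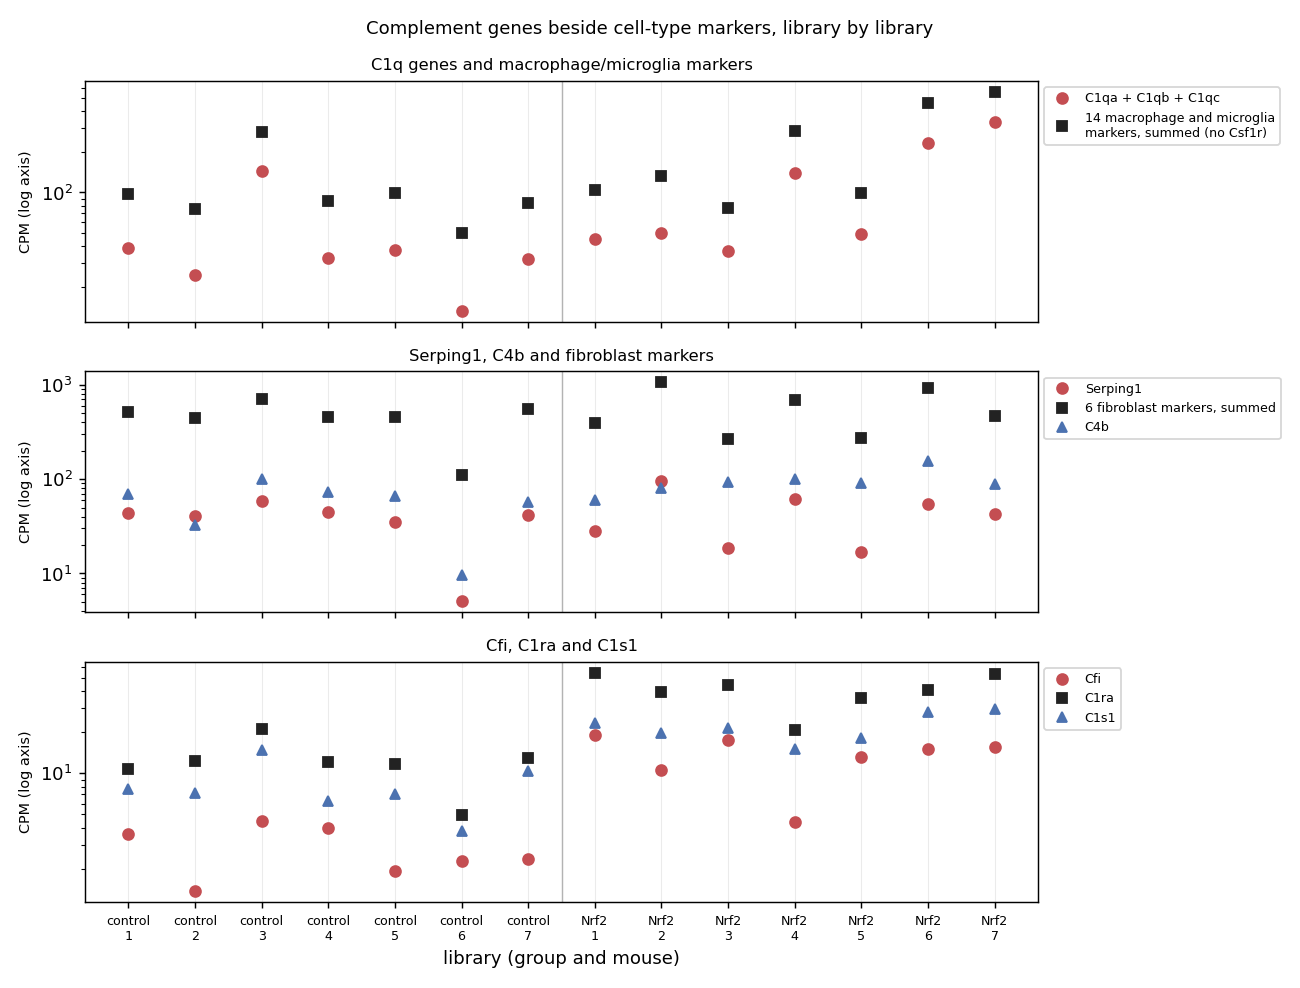
Levels in CPM (vertical axes, log scale) of complement genes and of summed cell-type markers in each library, control eyes on the left and Nrf2 eyes on the right, numbered by mouse. Upper panel, the C1q sum beside 14 macrophage and microglia markers; middle panel, Serping1 and C4b beside 6 fibroblast markers; lower panel, Cfi, C1ra and C1s1. C1q and the macrophage markers are highest together in control 3, Nrf2 4, Nrf2 6 and Nrf2 7, and control 6 is the lowest library for Serping1 (5.09 CPM), C4b (9.56 CPM) and the fibroblast markers (110 CPM).

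Of the 4 genes for C1r and C1s, the proteases that act with C1q, 2 rose (C1ra and C1s1). C1ra, a gene for C1r (ENSMUSG00000055172), had 4.97 to 20.96 CPM with a median of 12.1 in control eyes and 20.8 to 54.4 CPM with a median of 40.3 in Nrf2 eyes. Its log2 fold change was 1.92 ± 0.26 (adjusted p = 0.0103, edgeR), with 7 of 7 mice higher, and the groups overlapped only through Nrf2 4 and control 3. C1s1, a gene for C1s (ENSMUSG00000038521), had 3.79 to 14.7 CPM in control eyes and 14.99 to 29.6 CPM in Nrf2 eyes, so its groups did not overlap, which held for 1.04% of all genes in that direction. Its log2 fold change was 1.63 ± 0.23 (adjusted p = 0.0120, edgeR), and 0.0527 without mouse 7. The copies C1rb (log2 fold change 2.18 ± 0.51, adjusted p = 0.0584) and C1s2 (1.71 ± 0.47, adjusted p = 0.0949) did not pass the threshold in edgeR. Their means in Nrf2 eyes were 2.46 and 2.00 CPM.

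These 4 genes form a cluster of 124 kb at chr6:124512405-124636085. The longest transcripts of C1ra and C1rb were 98% identical, and those of C1s1 and C1s2 95.9%, so reads may have been divided between copies by the counting model and the values of the copies are uncertain. C1s1 also overlaps the antisense gene Gm16567, whose reads cannot be separated from it without strand information. The promoter windows of C1ra (chr6:124512371-124512670, plus strand) and C1rb (chr6:124570180-124570479, plus strand) are printed to show that the copies also share sequence there, with the match to the GAS element in capitals.
C1ra: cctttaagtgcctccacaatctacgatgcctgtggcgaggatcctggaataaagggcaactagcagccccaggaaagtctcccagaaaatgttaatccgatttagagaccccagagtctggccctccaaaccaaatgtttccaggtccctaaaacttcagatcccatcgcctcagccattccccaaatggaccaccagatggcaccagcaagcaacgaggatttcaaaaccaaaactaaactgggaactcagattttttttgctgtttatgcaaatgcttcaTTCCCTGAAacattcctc
C1rb: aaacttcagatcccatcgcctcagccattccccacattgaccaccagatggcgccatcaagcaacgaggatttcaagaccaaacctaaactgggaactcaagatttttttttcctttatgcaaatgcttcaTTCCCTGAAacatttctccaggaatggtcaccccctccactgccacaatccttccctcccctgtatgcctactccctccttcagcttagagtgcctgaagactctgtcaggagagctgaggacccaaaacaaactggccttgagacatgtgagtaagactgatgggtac
The same 9 letters of the GAS element, known from interferon-induced genes, stood 32 bases after the start in C1ra and 119 bases before it in C1rb. The windows shared a run of 34 identical bases, displaced by 151 bases between them, so the annotated starts of the copies differ.

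C4b (ENSMUSG00000073418, chr17:34728380-34743882, minus strand), whose protein C1s cuts next, had 70.0, 32.3, 102, 73.1, 65.8, 9.56 and 57.7 CPM in the control eyes of mice 1 to 7. It had 60.7, 80.1, 93.8, 99.2, 90.2, 155 and 88.0 CPM in their Nrf2 eyes. Most Nrf2 eyes were moderately higher, and mouse 6 had both the lowest control value and the highest Nrf2 value. After TMM normalization all 7 within-mouse differences were above 0 (0.10 to 3.98 on the log2 scale), but in CPM of the total count the Nrf2 eyes of mice 1 and 3 were lower. The exact two-sided sign-flip permutation test on the normalized differences gave p = 0.0156, the smallest 7 mice allow, whereas edgeR gave a log2 fold change of 0.95 ± 0.43 with adjusted p = 0.284. Without mouse 6 the log2 fold change was 0.56 ± 0.17 (adjusted p = 0.156, edgeR), and without mice 3 and 4 it was 1.23 ± 0.54 (adjusted p = 0.245). The sequence of C4a, its neighbour and near copy, was 96.1% identical over 5367 aligned bases of transcript. C4a had no row under its name in the deposited table and so could not be analysed, and C4b values may include its reads.

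C2, the other substrate of C1s, averaged 150 ± 62.9 CPM in the control and 171 ± 56.0 CPM in the Nrf2 libraries (SD, n = 7). A log2 fold change of 0.37 ± 0.36 was within the spread between mice (adjusted p = 0.620, edgeR). Of the 13 further genes of the classical and lectin start with a row, 7 were tested, 2 rose (C1ra and C1s1) and 0 fell. That is 28.6% against 3.43% of all genes, with a median log2 fold change of 1.63, the value of C1s1. C1ra, C1rb, C1s1 and C1s2 were among those tested, so the share and the median mostly describe their cluster. The rest of those tested were C2, Fcna (-0.60 ± 0.68) and Masp1 (-0.71 ± 0.83). Fcna and Masp1 of the lectin route averaged under 0.5 CPM in both groups.

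C3 (ENSMUSG00000024164, chr17:57203970-57228136, minus strand), on which all routes meet, was low. It had 4.35, 4.41, 3.45, 1.59, 3.23, 7.24 and 1.04 CPM in control eyes and 2.36, 2.66, 3.69, 4.25, 9.12, 3.85 and 1.96 CPM in Nrf2 eyes of mice 1 to 7. The groups covered the same range, and the eye with more C3 was the Nrf2 eye in mice 3, 4, 5 and 7 and the control eye in the others. The log2 fold change was 0.33 ± 0.42 (adjusted p = 0.719, edgeR) and 0.06 ± 0.51 without mice 3 and 4. Genes with the most similar pattern over the 14 libraries were Chad (r = 0.87, rho = 0.82), Hip1r (r = 0.83, rho = 0.82) and Nhlrc3 (r = 0.82, rho = 0.88), a looser likeness than that of the C1q chains. The promoter window of C3 (chr17:57228087-57228386, minus strand) held the C/EBP core, in capitals, 45 bases before the start.
C3: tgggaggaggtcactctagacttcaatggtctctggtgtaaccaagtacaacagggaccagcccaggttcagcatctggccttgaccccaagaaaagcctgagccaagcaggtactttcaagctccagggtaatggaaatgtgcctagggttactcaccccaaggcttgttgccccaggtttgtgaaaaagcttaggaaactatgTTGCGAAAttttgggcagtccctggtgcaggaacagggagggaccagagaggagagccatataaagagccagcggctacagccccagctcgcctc
C/EBP factors are known to drive C3 in the acute phase, and the core is rare, in 0.798% of windows. Cebpb, the gene for C/EBP beta, rose 2.01-fold, from 55.3 ± 11.6 to 103 ± 24.96 CPM (SD over 7 eyes). Its log2 fold change was 1.008 ± 0.202 (adjusted p = 0.0345, edgeR), and it had adjusted p = 0.0745 without mice 3 and 4. C3 did not pass the threshold in any of the 16 alternatives tried. Any link between Cebpb, the motif match and C3 was not tested.

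Cfb (ENSMUSG00000090231, chr17:34856374-34862518, minus strand), the factor of the alternative route that factor D activates, lies beside C2. It had 4.596 to 6.78 CPM with a median of 5.26 in control eyes and 2.33 to 10.6 CPM with a median of 4.47 in Nrf2 eyes. Nrf2 2 was the highest of the 14 libraries, and the control eyes were close together. The log2 fold change of -0.25 ± 0.25 did not pass the test (adjusted p = 0.630, edgeR). Cfb lies almost wholly within the span of the readthrough gene Gm20547, which had 0 to 1.56 CPM per library, so some reads may have been assigned to that gene.

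Cfd (ENSMUSG00000061780, chr10:79890853-79892655, plus strand), factor D or adipsin, is known from fat cells. It had 5 counts over all 14 libraries, 3 in Nrf2 eyes and 2 in control eyes, and 10 libraries had none. A count of 0 still allowed levels up to between 0.0594 and 0.181 CPM depending on the library's depth, with counting error only. No fold change is given. Fat cell markers summed to 6.27 to 44.0 CPM in control eyes and 3.94 to 50.9 CPM in Nrf2 eyes, the larger part of it, in the mean, Car3 (up to 49.4 CPM). Adipoq had at most 0.467 CPM, Plin1 at most 2.36 CPM and Fabp4 at most 3.66 CPM in any library. Of the 7 markers 3 were tested and 0 passed the threshold in edgeR, DESeq2 or voom or had an unadjusted p under 0.05. Cfp, properdin, which stabilizes the C3 convertase of the alternative route, had 1.96 ± 0.572 CPM in control and 0.856 ± 0.616 CPM in Nrf2 eyes (log2 fold change -1.31 ± 0.57, adjusted p = 0.272, edgeR).

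Cfi (ENSMUSG00000058952, chr3:129835884-129875332, plus strand) encodes factor I, the protease that cuts C3b and C4b and so switches the convertases off. It had 3.60, 1.37, 4.45, 3.96, 1.94, 2.27 and 2.36 CPM in the control eyes of mice 1 to 7 and 19.1, 10.6, 17.6, 4.37, 13.2, 14.96 and 15.5 CPM in their Nrf2 eyes. The Nrf2 eye was the higher in every mouse, by far in all but mouse 4, and the groups overlapped only because Nrf2 4 lay below control 3. The mean rose from 2.85 ± 1.15 to 13.6 ± 4.93 CPM (SD over 7 eyes). The log2 fold change was 2.41 ± 0.35 (adjusted p = 0.0122, edgeR), and the exact two-sided sign-flip permutation test gave p = 0.0156. Every library had at least 41 counts of the gene.

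On the log2 scale the within-mouse difference of Cfi was 0.31 in mouse 4 and lay between 2.18 and 2.89 in the other mice. Without mice 3 and 4 the groups did not overlap, which holds for 4.46% of all genes in that direction. The log2 fold change was then 2.82 ± 0.22 (adjusted p = 0.00294, edgeR, where 2.98% of genes were called higher). These mice had been set aside partly for a likeness in Cfi itself, so this fit is no separate support. Without mouse 7 the log2 fold change was 2.33 ± 0.40 and the adjusted p was 0.0542, at the edge of the threshold. The 15 other alternatives were past it, among them the looser threshold of 0.1 on the main fit, which Cfi had to pass. The direction was the same in all 16 alternatives, with log2 fold changes between 2.28 and 2.82.

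**Figure D3:**
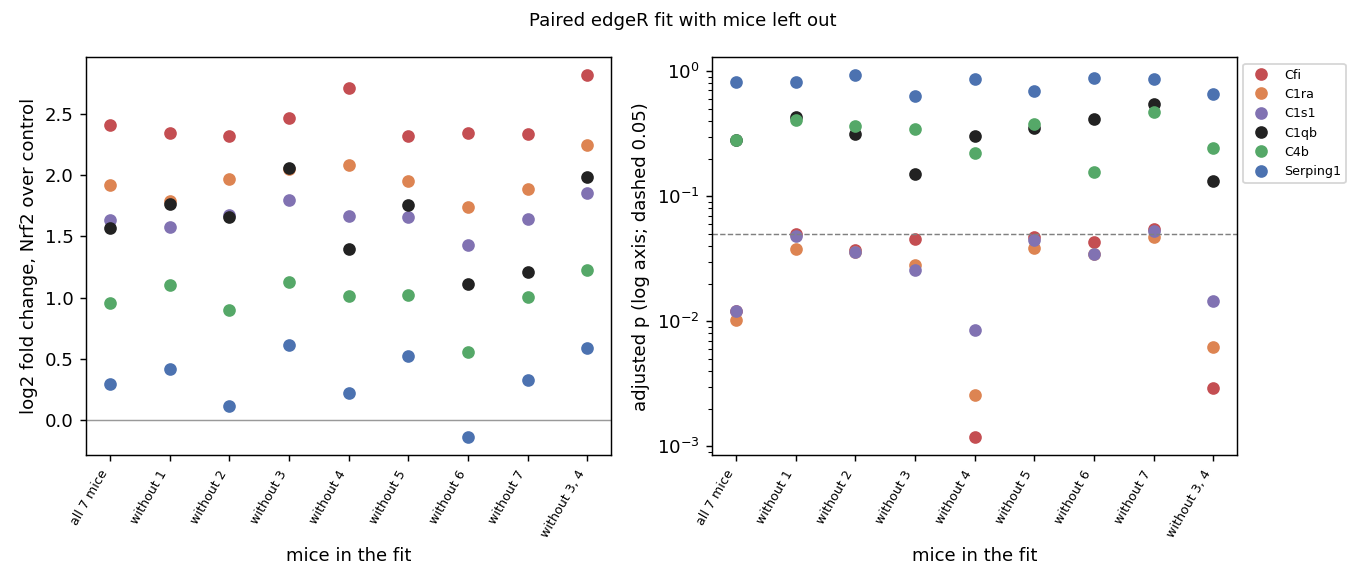
Log2 fold change of Nrf2 over control eyes (left) and adjusted p on a log axis (right, dashed line at 0.05) of 6 complement genes in the paired edgeR fit with all 7 mice, with each mouse left out and without mice 3 and 4. Points are fits, coloured by gene. Cfi stays between 2.32 and 2.82 and has its largest p, 0.0542, without mouse 7, whereas Serping1 falls to -0.14 without mouse 6.

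Serping1 (ENSMUSG00000023224, chr2:84765387-84775444, minus strand) encodes the inhibitor of C1r, C1s and the MASP proteases. It had 44.0, 40.7, 59.2, 44.5, 35.6, 5.09 and 41.8 CPM in control eyes and 28.0, 96.2, 18.5, 61.4, 16.8, 54.9 and 42.2 CPM in Nrf2 eyes of mice 1 to 7. Control eyes were alike except that of mouse 6, and Nrf2 eyes lay on both sides of them. The log2 fold change was 0.29 ± 0.53 (adjusted p = 0.812, edgeR), and it turned to -0.14 ± 0.35 without mouse 6. The summed level of 6 fibroblast markers moved in the same libraries, with 110 CPM in control 6, 701 CPM in control 3 and a median of 460 among control eyes, and 268 to 1065 CPM with a median of 464 among Nrf2 eyes. All 6 were tested, 0 passed the threshold in edgeR, DESeq2 or voom or had an unadjusted p under 0.05 in edgeR, and their part in the Serping1 values was not tested.

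Of 15 other inhibitors 10 were tested and none rose or fell past the threshold in edgeR or in voom. In edgeR 1 had an unadjusted p under 0.05, where 18.1% of all genes did. The median log2 fold change of the 10 was -0.22. Clu, clusterin, which blocks the terminal pore, was the most abundant by CPM, with 6531 ± 1855 CPM in control and 7134 ± 970 CPM in Nrf2 eyes (log2 fold change 0.31 ± 0.24, adjusted p = 0.536, edgeR). Among membrane inhibitors, Cd55 had a log2 fold change of 0.08 ± 0.43, Cd59a of 0.23 ± 0.20 and Cr1l, known as Crry, of -0.26 ± 0.15, with adjusted p of 0.942, 0.573 and 0.376.

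At the end of the cascade C9, which forms the ring of the pore, was seen almost only in Nrf2 eyes. It had 0, 2 or 3 counts in control eyes, with 0 in 5 of 7. Nrf2 eyes had 11 to 60 counts (0.895 ± 0.411 CPM, SD, n = 7). The groups did not overlap, which held for 1.04% of all genes in that direction. C9 passed the filter on low counts only through the Nrf2 eyes, where it is high. Its lack of overlap and its call (adjusted p = 0.0101, edgeR) thus partly follow from the filter. With no filter the adjusted p was 0.0116, and after thinning to the smallest library it had too few counts to be tested. The level stayed under 1.4 CPM in every library, and the fitted log2 fold change of 5.67 ± 0.74 depends on the prior count. Hc, the gene for C5, had 19 counts in control and 23 in Nrf2 eyes and was not tested. C8g had a log2 fold change of -0.01 ± 0.21.

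Of 9 receptor genes 8 were tested and 0 passed the threshold in edgeR, DESeq2 or voom or had an unadjusted p under 0.05 in edgeR, with a median log2 fold change of 0.77. C3ar1 (1.74 ± 0.84, adjusted p = 0.316), C5ar1 (1.04 ± 0.83, adjusted p = 0.539) and Itgb2 (1.17 ± 0.77, adjusted p = 0.453), receptors of myeloid cells, had positive log2 fold changes with wide errors. Itgam, the partner of Itgb2 in complement receptor 3, had -0.80 ± 0.62 (adjusted p = 0.527), and its model lies over the readthrough gene Gm49368. Over the 45 other complement genes with a row, 28 were tested and 3 were called higher (C1ra, C1s1 and C9), with 0 lower and a median log2 fold change of 0.16, where 2.94% of all genes were called higher. C9 was among them only through its Nrf2 eyes, and with counts thinned to the smallest library 2 of 25 were called (C1ra and C1s1).

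**Figure D4:**
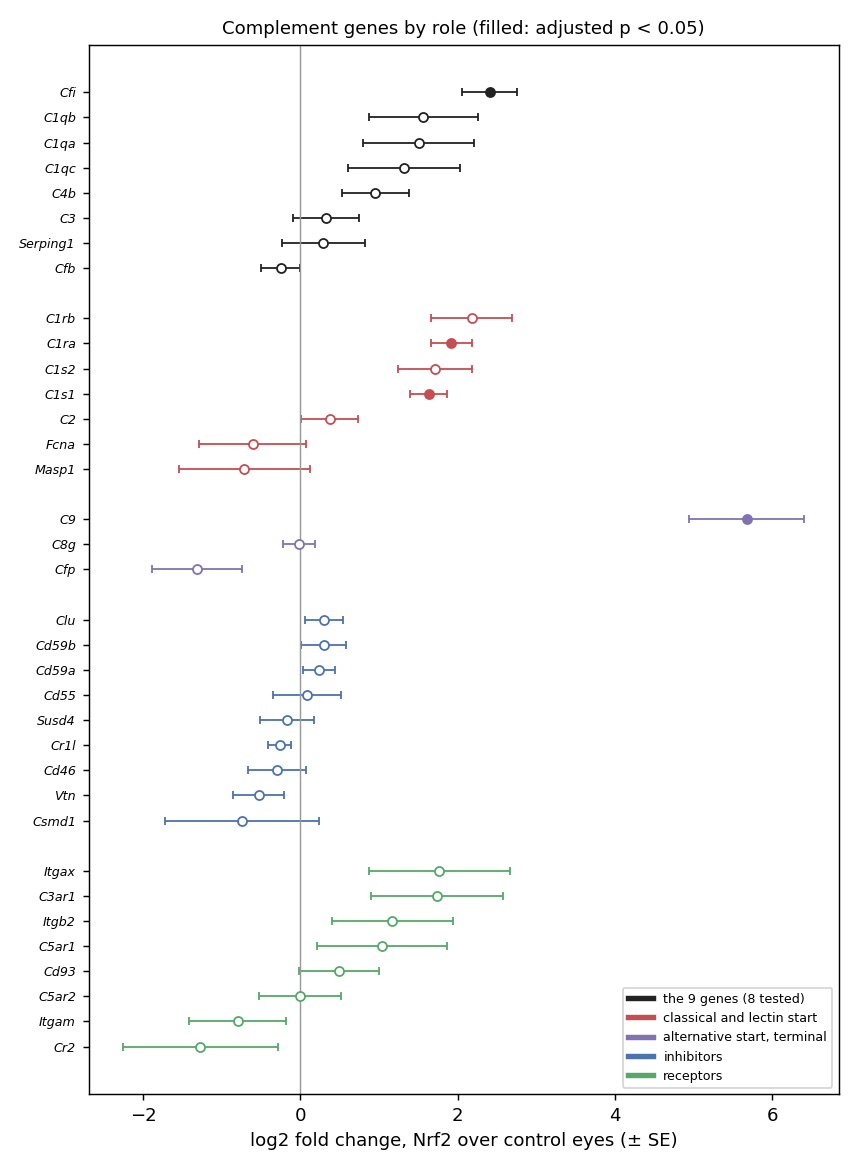
Log2 fold change of Nrf2 over control eyes (horizontal axis, ± SE from the paired edgeR fit, n = 7 mice) for the tested complement genes reported here, grouped by role and coloured by group. Filled points have an adjusted p under 0.05: Cfi among the 9 genes, and C1ra, C1s1 and C9 among the others. Of the inhibitors shown, Clu lies at 0.31 and Cr1l at -0.26.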

How the data were processed

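RPE RNA of both eyes of 7 mice was amplified with a low-input kit for poly-A RNA and sequenced in 2 runs, per the labels, which do not give each library's run, so runs could not be compared. The methods of the study name fewer pairs for this comparison than the labels give. All labelled pairs were used here. The deposited table holds estimated counts, whole numbers per gene that were not normalized. The study's methods name alignment to mm10 with Ensembl annotation and Salmon (0.9.1 in the submitters' processing notes), and the table's source was taken to be Salmon from its row set. Of 34452 mouse genes 34401 matched GENCODE M21. Estimated counts divide reads between similar copies by a model, without strand information here.

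The test was edgeR 4.0.16 (R 4.3.3; glmQLFit) with mouse and treatment as terms, TMM, filterByExpr with a minimum count of 10, and Benjamini-Hochberg adjustment over the 16289 mouse genes tested and the vector row, which was not counted. SEs were derived from F, with 6 residual degrees of freedom. Within-mouse differences in log2 CPM (prior count of 2) were tested by sign-flip permutation (exact, two-sided, 128 patterns). CPM used total counts. Pairing follows the labels, which number eyes by animal. Between the eyes of a mouse, deviations from group means correlated at 0.00, 0.07, 0.06, -0.37, 0.36, -0.19 and 0.16 in mice 1 to 7 (14113 genes).

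Alternatives were no mouse term, DESeq2 1.42.0, voom with quality weights (limma 3.58.1), RLE and upper-quartile normalization, no filter, thinned counts, adjusted p under 0.1, each mouse left out, and mice 3 and 4 left out. For C1rb, C1s1, C1s2, C1ra, C9 and Cebpb they were added after the values were seen. The genes and lists were chosen with earlier results of these data known. Named were the 9 genes, list genes past the threshold, complement genes picked by name (some are not reported here), and the 3 genes most like C3 and like C1q (for Cfd the counts were too few); others are shown for a copy, an overlap or a co-moving marker. The fits were tested on simulated data.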

Additional observations from a re-analysis of the deposited data

Results flagged for a closer look

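Among 16 groups of 7 libraries examined for a library far from the others, 6 held one, each on the high side. Chance gives about 1 in 20 for independent groups of normally distributed values, which CPM need not be. The control eye of mouse 3 stood above the other control eyes in C1qa (47.8 CPM, next 13.6), C1qb (48.0 CPM, next 12) and C1qc (48.8 CPM, next 13.8). These 3 genes move together, so they count as 1 event, and the same library had the highest sum of 14 macrophage markers among control eyes, 282 CPM, with a vector level of 1163 CPM. In Nrf2 eyes C4b was highest in mouse 6 (155 CPM, next 99.2), C3 in mouse 5 (9.12 CPM, next 4.25) and Cfb in mouse 2 (10.6 CPM, next 5.15), the shallowest library. Without mouse 6 the log2 fold change of C4b was 0.56.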

How the results depend on the processing

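The call of Cfi held in 15 of 16 alternatives, and C3, C4b, C1qa, C1qc, Cfb and Serping1 passed in none. The looser threshold of 0.1 was applied to the main fit itself, so Cfi had to pass it. Without the mouse term as a replicate block 1100 genes were called (877 higher, 223 lower) and 5 other complement genes, C1rb and C1s2 being added, while Cfi stayed the only call among the 9. DESeq2 called 1906 genes, 2 of the 9 (Cfi and C1qb) and 6 other complement genes. Voom with quality weights called 2592 (1585 higher, 1007 lower), the test without a filter 347, and an adjusted p under 0.1 gave 1030 genes and 5 other complement genes. With each mouse left out in turn the counts ran from 111 (without mouse 7) to 1998 (without mouse 4) for all genes, from 0 (without mouse 7) to 1 for the 9 genes, and from 2 (without mouse 7) to 5 (without mouse 4, with Itgam lower) for the others. Serping1 reversed to -0.41 under voom and, with mice left out in turn, ran from -0.14 without mouse 6, whose control eye was lowest, to 0.61 without mouse 3. The paired difference of Cfd, at 0 to 2 counts per library, reversed to -0.0122 without mice 3 and 4. With these 5 mice the sign-flip p was 0.0625 for Cfi and for C4b, the smallest that 5 mice allow. Other causes were not tested. Low counts limit Cfd, C9 and Hc, and the spread between mice limits the C1q genes.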

Other observations

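The genes most like the remaining complement genes were named after their values were seen. Over 14 libraries the log2 CPM of Cfi correlated most with Adssl1 (r = 0.98, rho = 0.99), Unc5b (r = 0.98, rho = 0.98) and Stk10 (r = 0.97, rho = 0.95). Serping1 correlated most with Dcn (r = 0.95, rho = 0.92), decorin of connective tissue, and Serpinf1 (r = 0.94, rho = 0.89). C4b had Opn4 (r = 0.93), but with rho = 0.57, and its low value in control 6 weighs in r. Cfb had Ntrk3 (r = 0.94, rho = 0.92). All points share library depth and cell make-up.

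Of 7 known inducers of complement genes, Cebpb alone passed the threshold in edgeR (DESeq2 and voom also called Cebpd), and it passed in 10 of 16 alternatives. Those 10 include the looser threshold of 0.1 on the main fit, which Cebpb had to pass. Cebpd had a log2 fold change of 0.67 ± 0.21 (adjusted p = 0.134), Stat3 of 0.15 ± 0.12 (adjusted p = 0.552) and Irf1 of -0.89 ± 0.55 (adjusted p = 0.425). Of 8 rod and cone markers, 2 (Gnat2 and Opn1sw) were lower past the threshold, with a median log2 fold change of -3.54, where 0.491% of all genes were called lower. DESeq2 and voom each called 7 of the 8 lower, and edgeR without mice 3 and 4 called 1. Of 8 RPE markers only Rpe65 was called in edgeR, lower (log2 fold change -2.17 ± 0.37, adjusted p = 0.0199). DESeq2 also called Tyr and Ttr higher, and voom Ttr. No marker of endothelium, blood, glia or hepatocytes passed in edgeR. Of these 18 tested, 3 had an unadjusted p under 0.05, where 18.1% of all genes did. Ttr, also on the RPE list, was among these 3. Among the 18 markers DESeq2 called Glul and Ttr higher, and voom also called Aqp4 lower.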
